A study of Homo sapiens with 18 samples.

Results

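The genes described encode subunits of RNA polymerases I, II and III. They were chosen by symbol as the protein-coding genes whose names begin with POLR1, POLR2 or POLR3 followed by a letter. Subunits under other symbols are counted apart. The family matched 31 gene identifiers with 30 symbols among 58735 genes in the RBCK1 and ANKRD35 tables, and 30 symbols among 29928 in the MITD1 table. The family was picked with earlier results of these same knockdown comparisons in view, so counts and medians over it are descriptions. RNA was sequenced from 786-O, an established clear cell renal carcinoma line grown in RPMI-1640 medium with serum. The 6 groups of 3 libraries were shRBCK1 (RBCK1 knockdown, a short hairpin RNA by its prefix) and its shcontrol, siANKRD35 (ANKRD35 knockdown, a small interfering RNA by its prefix, though the deposited columns say ShRNA) and its sicontrol_for_siANKRD35, and siMITD1 (MITD1 knockdown, likewise si) and its sicontrol_for_siMITD1. RBCK1 is an E3 ubiquitin ligase, ANKRD35 an ankyrin repeat protein and MITD1 a protein that acts with the membrane-scission complex ESCRT-III. The labels name the same line for all groups and no drug treatment; the checks below set the libraries of the ANKRD35 table apart from the others, and whether they are the same line was not tested. Whether replicates are separate cultures is not stated in the labels, so the p-values below rest on the spread of these libraries alone, and that spread may be technical.

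Transcription in the nucleus is divided among these enzymes. Polymerase I makes the precursor of the large ribosomal RNAs, polymerase II makes messenger RNAs and many non-coding RNAs, and polymerase III makes transfer RNAs, 5S ribosomal RNA and other short RNAs. In each enzyme the largest and the second largest subunit together form the catalytic centre, a small set of subunits is common to all of them, and the remaining subunits are specific to one enzyme or shared by polymerases I and III.

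The targeted gene was checked in every library first. RBCK1 was at 30.8, 32.0 and 32.9 FPKM in shRBCK1 libraries, against 487.0, 491.7 and 462.0 FPKM in shcontrol libraries (FPKM is a level per gene length and library depth). ANKRD35 was at 0, 0 and 0.0332 FPKM in siANKRD35 libraries, against 753.2, 687.1 and 742.0 FPKM in sicontrol_for_siANKRD35 libraries. The same gene lay between 0 and 0.0392 FPKM in all 12 libraries of the other tables, the other control groups included, so the controls of this comparison stand apart from the other controls labelled as the same line. Each siANKRD35 change below is thus a difference from controls with an ANKRD35 level that no other control group had, and the nature of those controls is not given in the sources used here. MITD1 was at 2.43, 2.66 and 3.03 FPKM in siMITD1 libraries, against 7.16, 7.42 and 7.83 FPKM in sicontrol_for_siMITD1 libraries. The 3 targets were lower in 3 of 3 knockdown libraries, and an exact two-sided permutation test of 3 against 3 gave p = 0.1 for each, the smallest it can give. Reads recovered per library lay between 16346478 and 18648246 for the RBCK1 comparison, between 17502646 and 19034974 for ANKRD35, and between 10185080 and 11516812 for the MITD1 genes whose reads came out whole. Mitochondrial genes took 12.2% to 12.6% of summed FPKM in shRBCK1 libraries, against 9.93% to 10.5% in shcontrol, and 17.5% to 20.8% in siANKRD35, against 21.5% to 22.3% in its controls, without overlap in either case. Of 10 markers of the renal carcinoma line, all were listed in each table, and the cadherin gene CDH6 was at 0 in all ANKRD35 libraries but averaged 18.6 and 13.5 FPKM in shRBCK1 and shcontrol. The summed level of these markers was 815 to 846 FPKM in shRBCK1 libraries, against 1015 to 1034 in shcontrol. It was 1394 to 1720 in siANKRD35, against 1177 to 1216 in its controls. In siMITD1 it was 1307 to 1329, against 1251 to 1261 in its controls. Abundant markers weigh most in these sums, and single markers moved both ways. In shRBCK1 PAX8, CA12, EPAS1 and CDH6 averaged higher and the others lower. In siANKRD35 KRT8, KRT18, VIM and CD70 averaged higher, and PAX8, NNMT, EPAS1, PAX2 and CA12 lower. In siMITD1 VIM, CA12, KRT18, EPAS1 and NNMT averaged higher and the others lower. The 4 blood markers and every listed endothelial marker were under 1 FPKM in all libraries, with CD3E at 0 in all. Of 4 fibroblast markers 3, 4 and 2 were under 1 FPKM throughout the RBCK1, ANKRD35 and MITD1 tables, and they summed to 2.15 to 2.77 FPKM in shRBCK1 libraries, against 1.73 to 1.88 in shcontrol, 0.0840 to 0.159 in siANKRD35 against 0.356 to 0.470 in its controls, and 3.08 to 3.43 in siMITD1 against 3.35 to 4.65 in its controls. The part of these mitochondrial and marker differences in the subunit results was not tested.

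Of the family, 28 genes reached 1 FPKM in 3 or more of the 6 libraries of each comparison and were tested: the 6 large subunits, which are the catalytic pairs, and 22 small subunits. The genes left out were POLR2J2 and both identifiers of POLR2J3, near-identical copies of the polymerase II subunit gene POLR2J, whose mean levels in the groups ran from 0.0508 to 1.04 FPKM. Their values are uncertain, since 97.6% of the 50-base stretches of POLR2J2 and 80.0% and 45.3% of those of the POLR2J3 identifiers also occur in other genes. POLR2J itself shares 36.9% of such stretches. For POLR2I, 79.6% of exon bases overlap other genes, among them TBCB, and the strand used in counting is not given in the sources used here, so its values are uncertain as well. The same limit holds in part for POLR2L, with 22.5% of exon bases overlapping CD151, and for POLR2B, with 12.4% overlapping IGFBP7 and NOA1. The listed position and length of each of the 31 identifiers equalled those of GENCODE 29 on GRCh38.

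Promoter sequences are shown for POLR2A, which was lower in all 3 knockdowns. They are also shown for POLR3K, POLR3F and POLR1C, called higher after ANKRD35 knockdown and lower after MITD1 knockdown. The last is that of POLR2C, called higher in both of those and lower after RBCK1 knockdown. In siANKRD35 the calls of POLR3F and POLR2C were marginal (limma adjusted p = 0.0442 and 0.0482). Both were lost after length correction (limma adjusted p = 0.481 and 0.208). The promoter sequences come from RefSeq (GRCh38.p14). Each runs from 250 bases before to 50 bases after the annotated start, 5′ to 3′ on the gene's own strand. The stretches are chr17:7484116-7484415 on the plus strand for POLR2A, chr16:53559-53858 on the minus strand for POLR3K, chr20:18467140-18467439 on the plus strand for POLR3F, chr6:43516839-43517138 on the plus strand for POLR1C and chr16:57462429-57462728 on the plus strand for POLR2C. Capitals mark matches, on either strand, to the GC box GGGCGG, the ETS core CCGGAAG and the YY1 core GCCATNTT.
POLR2A: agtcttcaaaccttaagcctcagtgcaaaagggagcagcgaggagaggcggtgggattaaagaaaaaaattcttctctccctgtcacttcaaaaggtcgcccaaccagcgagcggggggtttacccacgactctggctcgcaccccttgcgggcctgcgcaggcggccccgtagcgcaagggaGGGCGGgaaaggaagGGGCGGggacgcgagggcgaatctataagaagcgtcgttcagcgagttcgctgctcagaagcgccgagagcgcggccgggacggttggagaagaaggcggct
POLR3K: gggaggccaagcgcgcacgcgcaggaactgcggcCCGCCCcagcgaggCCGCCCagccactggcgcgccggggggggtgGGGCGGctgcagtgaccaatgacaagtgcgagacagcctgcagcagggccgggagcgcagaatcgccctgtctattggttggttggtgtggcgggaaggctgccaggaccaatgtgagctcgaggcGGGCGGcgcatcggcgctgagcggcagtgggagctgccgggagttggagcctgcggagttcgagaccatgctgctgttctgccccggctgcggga
POLR3F: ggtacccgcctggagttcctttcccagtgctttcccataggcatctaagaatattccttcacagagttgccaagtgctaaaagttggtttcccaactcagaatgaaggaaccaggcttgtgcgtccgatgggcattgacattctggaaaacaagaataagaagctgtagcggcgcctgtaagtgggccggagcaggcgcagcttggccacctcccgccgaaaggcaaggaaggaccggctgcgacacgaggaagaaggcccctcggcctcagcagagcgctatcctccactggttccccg
POLR1C: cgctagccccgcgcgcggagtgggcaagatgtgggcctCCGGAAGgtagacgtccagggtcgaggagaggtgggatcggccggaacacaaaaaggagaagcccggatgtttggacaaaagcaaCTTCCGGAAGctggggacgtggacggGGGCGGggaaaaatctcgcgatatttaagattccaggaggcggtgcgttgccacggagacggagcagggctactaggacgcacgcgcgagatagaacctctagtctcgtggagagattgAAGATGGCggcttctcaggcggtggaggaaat
POLR2C: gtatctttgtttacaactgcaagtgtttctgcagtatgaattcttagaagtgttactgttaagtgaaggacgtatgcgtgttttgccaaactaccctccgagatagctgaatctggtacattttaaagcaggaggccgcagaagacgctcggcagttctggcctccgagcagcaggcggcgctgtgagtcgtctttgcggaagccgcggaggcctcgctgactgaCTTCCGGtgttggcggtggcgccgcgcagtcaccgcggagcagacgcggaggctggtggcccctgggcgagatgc

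The POLR2A stretch held 2 GC boxes and that of POLR3K 4. POLR1C had 3 ETS cores, of which a pair overlap on opposite strands, with 1 GC box and 1 YY1 core, POLR2C had 1 ETS core, and none of the searched motifs was in the POLR3F stretch. RefSeq entries matched 21 of the 30 symbols, with 27 stretches in all. Among these 27, the GC box occurred in 21, the ETS core in 11, the E-box CACGTG in 3, the palindromic NRF1 motif in 4, the YY1 core in 3 and the TATA box TATAAA in 1. Among all 34796 promoter stretches of the same length the shares were 44.9% for the GC box, 10.2% for the ETS core, 7.21% for the E-box, 1.23% for the NRF1 motif, 6.58% for the YY1 core and 11.6% for the TATA box. The matches describe letters only, and several stretches belong to the same gene.

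In control cells the small zinc-binding subunit POLR2L, common to all 3 enzymes, had the highest level of the family in every table. It averaged 85.9 ± 5.59 FPKM in shcontrol, 32.2 ± 3.83 FPKM in sicontrol_for_siANKRD35 and 70.7 ± 7.09 FPKM in sicontrol_for_siMITD1 (SD, n = 3 each), in tables that were scaled separately. In shcontrol it was followed by the largest polymerase II subunit POLR2A at 46.5 ± 1.49 FPKM. In sicontrol_for_siANKRD35 the next gene, POLR2E at 29.4 ± 1.59 FPKM, overlapped POLR2L, while POLR3C at 29.1 ± 0.0782 and POLR2C at 28.3 ± 0.761 FPKM lay just below the lowest POLR2L library, at 29.4 FPKM. At the low end, POLR3B, the second largest polymerase III subunit, averaged 2.79 ± 0.219 and 2.83 ± 0.432 FPKM in shcontrol and sicontrol_for_siANKRD35, and POLR3E was lowest in sicontrol_for_siMITD1 at 3.98 ± 0.179 FPKM. In shcontrol POLR3B, POLR3G at 2.80 ± 0.15 FPKM and POLR2M at 2.92 ± 0.141 FPKM lay within their spread.

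After RBCK1 knockdown the family moved in both directions by small amounts. The RNA of POLR3D, a subunit of the polymerase III termination module, fell most, by 38.4%, and that of POLR3GL rose by 42.8%. Of 28 tested subunit genes 8 were higher, 5 lower and 15 not called at a limma adjusted p under 0.05, where 24.1% of all 12227 tested genes were higher and 24.9% lower. The shares of the family, 28.6% and 17.9%, lie near that background. The median log2 change of the family was 0.08 beside 0.01 over all tested genes, and 15 of 28 genes had no overlap between shRBCK1 and shcontrol libraries, beside 59.0% of all tested genes. A log2 change here is the knockdown mean minus the control mean of log2(FPKM + 1); at low levels it is smaller than the change in FPKM itself.

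After ANKRD35 knockdown many small subunits rose while the largest subunit of each polymerase fell. POLR2A was lower by 62.7% and POLR3K, the RNA cleavage subunit of polymerase III, higher by 114%. Of 28 tested subunit genes 14 were higher, 4 lower and 10 not called, where 19.4% of all 11890 tested genes were higher and 16.9% lower. The median log2 change was 0.30 beside 0.03 over all tested genes, and 22 of 28 genes had no overlap between groups, beside 52.2% of all tested genes. The counts depend on gene length and on single libraries: with each library corrected for gene length 7 were higher and 2 lower, beside 13.6% and 14.4% of all genes. After a correction for length and GC content, chosen after seeing the data, 13 were higher and 2 lower, beside 21.2% of all genes in each direction, and a replicate block with length correction gave 10 and 2, beside 12.0% and 12.7%. Without sicontrol_for_siANKRD35 replicate 3, 6 were higher and 1 lower, and without replicate 1 or 2 of that group or siANKRD35 replicate 3, 7 were higher and 1 lower.

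After MITD1 knockdown subunit genes fell more often than they rose. The RNA of POLR3F fell by 54.2% and that of POLR3K by 43.0%, while POLR3D was 116% higher. Of 28 tested subunit genes 4 were higher, 15 lower and 9 not called, where 30.0% of all 10415 tested genes were higher and 35.6% lower, so most genes of the table passed the test in this comparison. The median log2 change was −0.16 beside −0.03 over all tested genes, and 21 of 28 genes had no overlap between groups, beside 70.4% of all tested genes. Levels are shares of the RNA in bulk cultures, so fewer cells that express a gene and less RNA per cell cannot be told apart.

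**Figure D1:**
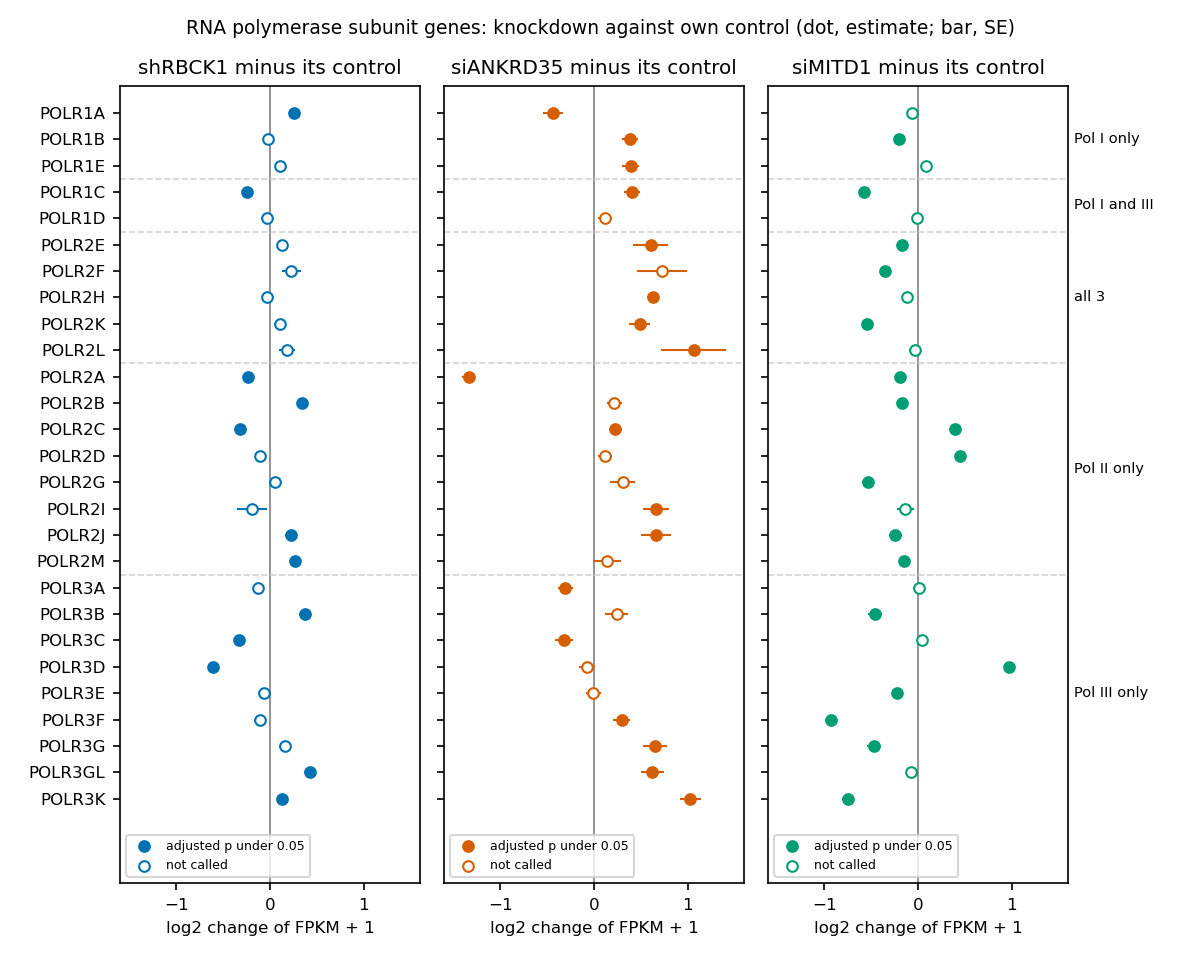
Log2 change of FPKM + 1, knockdown minus its own control, for 27 of the 28 tested subunit genes grouped by enzyme, one panel per knockdown; dots are limma estimates (n = 3 per group), bars their SE, and filled dots have an adjusted p under 0.05. POLR2A is the gene farthest to the left in the siANKRD35 panel (−1.34), and POLR3D lies on opposite sides in the shRBCK1 (−0.61) and siMITD1 (0.97) panels.

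Across the 3 knockdowns 27 of the 28 genes were called at least once, as were 88.5% of the 9262 symbols tested in all 3 tables, and POLR1D, a subunit shared by polymerases I and III, was the one called in none. Of the 5 genes called in all 3, beside 14.9% of those symbols, only POLR2A moved the same way each time, lower in every knockdown like 2.2% of the symbols. The others were POLR1C, POLR2C, POLR2J and POLR3K. The 8 genes POLR1B, POLR1C, POLR2E, POLR2J, POLR2K, POLR3F, POLR3G and POLR3K were higher after ANKRD35 knockdown and lower after MITD1 knockdown, a pattern of 8.89% of those symbols. Of these 8, POLR2E, POLR2J, POLR2K and POLR3F were not called in siANKRD35 after length correction, and POLR2E and POLR2J not in siMITD1 after length and GC correction. The difference between knockdowns was not tested, since the tables were scaled separately.

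POLR2A (ENSG00000181222, chromosome 17, 7484366 to 7514616 of GRCh38, plus strand) encodes the largest subunit of polymerase II, which carries the active site and the C-terminal repeat domain. Its level was 9.34, 9.99 and 10.0 FPKM in siANKRD35 libraries, against 25.9, 26.6 and 26.4 FPKM in sicontrol_for_siANKRD35 libraries. The groups were well apart, and the log2 change of −1.34 (SE 0.067, limma adjusted p = 0.000213) rested on 4246 reads summed over the siANKRD35 and 12189 over the control libraries; it was −1.19 after length correction (limma adjusted p = 0.00029). After RBCK1 knockdown it was at 41.0, 37.4 and 39.95 FPKM in shRBCK1 libraries, against 47.3, 47.4 and 44.8 FPKM in shcontrol. That was a smaller decrease with no overlap (log2 change −0.23, SE 0.043, limma adjusted p = 0.0037). In siMITD1 libraries it measured 23.9, 23.2 and 22.7 FPKM, against 27.4, 25.0 and 27.9 FPKM in their controls. All siMITD1 libraries were below the lowest control (log2 change −0.19, SE 0.046, limma adjusted p = 0.00557).

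POLR2B (ENSG00000047315, chromosome 4, 56977722 to 57031168, plus strand), the second largest subunit of polymerase II and the partner of POLR2A in the active centre, took another course. It was at 33.1, 33.5 and 32.1 FPKM in shRBCK1 libraries, against 25.4, 25.8 and 25.9 FPKM in shcontrol. Every shRBCK1 library was above every control (log2 change 0.34, SE 0.031, limma adjusted p = 0.00012). In siANKRD35 it was at 18.3, 21.0 and 18.02 FPKM, against 16.6, 16.3 and 15.9 FPKM in controls, without overlap but not called (log2 change 0.21, SE 0.081, limma adjusted p = 0.076). In siMITD1 it was at 27.7, 28.3 and 28.8 FPKM, against 32.7, 32.1 and 31.3 FPKM in controls, and fell (log2 change −0.18, SE 0.032, limma adjusted p = 0.00137).

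The ratio of POLR2A to POLR2B within a library follows from these values. It averaged 1.20 ± 0.0716 in shRBCK1 and 1.81 ± 0.0694 in shcontrol, and 0.515 ± 0.0403 in siANKRD35 and 1.61 ± 0.0524 in its controls, without overlap in either case (SD, n = 3 each). After MITD1 knockdown both RNAs fell by like amounts. The ratio was then 0.825 ± 0.0385 in siMITD1 and 0.836 ± 0.0564 in controls, and the groups overlapped. This ratio and those of the pairs below use FPKM without length correction. The first gene of each pair is the longer, as with 8355 bases for POLR2A and 5901 for POLR2B. After ANKRD35 knockdown change went with length, and the part of length in these ratios was not tested. How often other gene pairs lack overlap was not counted.

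**Figure D2:**
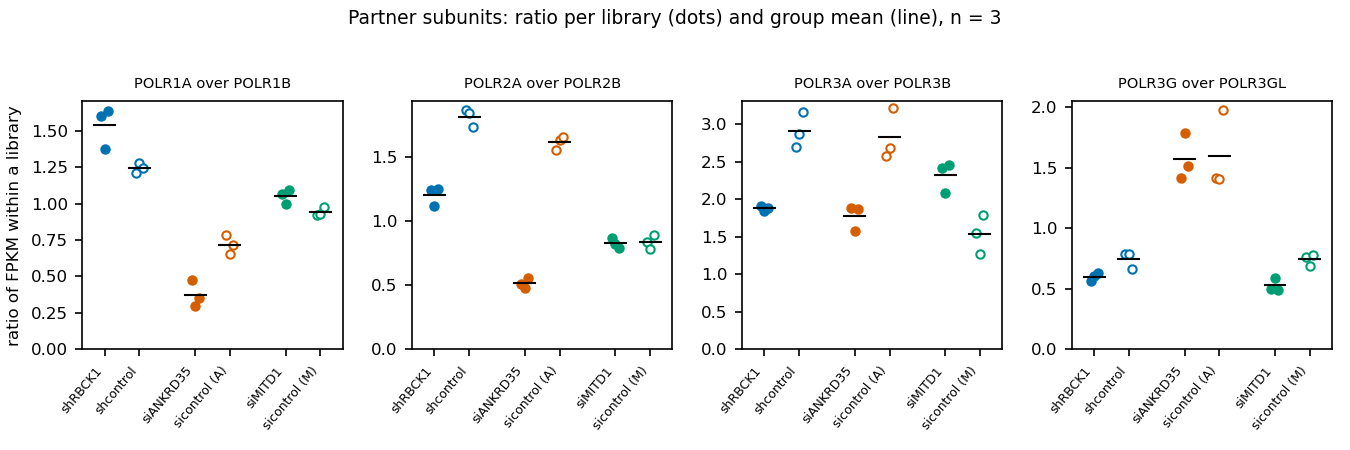
Ratio of FPKM of partner subunits within each library (dots) and the group mean (line) for the catalytic pairs and the paralog pair POLR3G and POLR3GL; filled dots are knockdown and open dots control libraries, and (A) and (M) mark the controls of siANKRD35 and siMITD1. The ratio of POLR2A to POLR2B is lowest in siANKRD35, at 0.476 to 0.557, against 1.55 to 1.65 in its controls. The ratios are not corrected for gene length.

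The largest polymerase I subunit POLR1A (ENSG00000068654, chromosome 2, 86020216 to 86106155, minus strand) was at 4.44, 3.28 and 3.67 FPKM in siANKRD35, against 5.66, 5.25 and 5.47 FPKM in controls. All siANKRD35 libraries were below the controls (log2 change −0.44, SE 0.103, limma adjusted p = 0.0171), and the call was lost after length correction (log2 change −0.18, limma adjusted p = 0.309). In shRBCK1 it was at 12.1, 10.9 and 12.1 FPKM, against 9.35, 9.88 and 9.57 FPKM in shcontrol, a rise of 21.6% (log2 change 0.26, SE 0.050, limma adjusted p = 0.00424). siMITD1 libraries had 5.41, 5.53 and 6.03 FPKM, against 5.80, 5.94 and 6.16 FPKM in controls; the groups overlapped and it was not called (limma adjusted p = 0.291).

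Its partner POLR1B, the second largest subunit of polymerase I, rose after ANKRD35 knockdown, to 9.36, 11.0 and 10.4 FPKM in siANKRD35 against 7.22, 7.99 and 7.67 FPKM in controls. All siANKRD35 libraries were above the controls (log2 change 0.38, SE 0.085, limma adjusted p = 0.0135), with a change of 0.44 after length correction (limma adjusted p = 0.0079). Levels in siMITD1 were 5.08, 5.54 and 5.51 FPKM, against 6.29, 6.396 and 6.29 FPKM in controls, lower in each library (log2 change −0.20, SE 0.048, limma adjusted p = 0.00594). In shRBCK1 it was at 7.56, 7.90 and 7.37 FPKM, against 7.72, 7.75 and 7.68 FPKM in shcontrol, with overlap and no call (limma adjusted p = 0.741). The ratio of POLR1A to POLR1B was 0.375 ± 0.0909 in siANKRD35 and 0.718 ± 0.0632 in its controls, 1.54 ± 0.14 in shRBCK1 and 1.24 ± 0.0319 in shcontrol, and 1.05 ± 0.0495 in siMITD1 and 0.944 ± 0.031 in its controls, without overlap in any of the 3.

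For polymerase III the largest subunit POLR3A (ENSG00000148606, chromosome 10, 77969251 to 78029545, minus strand) was at 5.89, 6.53 and 6.22 FPKM in siANKRD35, against 7.72, 8.48 and 7.52 FPKM in controls. It fell in all 3 libraries (log2 change −0.30, SE 0.078, limma adjusted p = 0.0231), and the call was lost after length correction (limma adjusted p = 0.185). In shRBCK1 POLR3A was at 7.24, 7.16 and 7.57 FPKM, against 7.71, 8.51 and 8.05 FPKM in shcontrol, without overlap but not called (log2 change −0.13, limma adjusted p = 0.0585); the adjusted p was 0.0315 after length correction. In siMITD1 it was at 6.61, 6.16 and 6.54 FPKM, against 6.61, 5.95 and 6.67 FPKM in controls, with overlapping groups (limma adjusted p = 0.927).

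The second largest subunit POLR3B was at 3.79, 3.90 and 4.01 FPKM in shRBCK1 libraries, against 2.86, 2.96 and 2.54 FPKM in shcontrol. It rose by 39.8% (log2 change 0.37, SE 0.060, limma adjusted p = 0.00192). siMITD1 libraries had 2.74, 2.96 and 2.66 FPKM, against 4.25, 4.69 and 3.74 FPKM in controls, 34.1% lower (log2 change −0.46, SE 0.076, limma adjusted p = 0.000701). In siANKRD35 it was at 3.12, 4.14 and 3.33 FPKM, against 2.999, 3.16 and 2.34 FPKM in controls, with overlap (limma adjusted p = 0.169). The ratio of POLR3A to POLR3B averaged 1.88 ± 0.0363 in shRBCK1 and 2.91 ± 0.236 in shcontrol, 1.78 ± 0.173 in siANKRD35 and 2.82 ± 0.34 in its controls, and 2.32 ± 0.206 in siMITD1 and 1.54 ± 0.258 in its controls, without overlap each time.

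The subunits common to all 3 polymerases are POLR2E, POLR2F, POLR2H, POLR2K and POLR2L. In the ANKRD35 comparison 4 of these 5 rose, POLR2F was not called, and their median log2 change was 0.63, where 19.4% of all tested genes were higher. After length correction POLR2H alone of the 5 was called (median 0.58), and after length and GC correction 4 of 5 were higher, all but POLR2K. POLR2H, an auxiliary subunit that binds the largest subunit, was at 31.6, 31.2 and 31.1 FPKM in siANKRD35, against 20.4, 19.2 and 19.9 FPKM in controls. Both groups were tight and far apart (log2 change 0.63, SE 0.064, limma adjusted p = 0.0013), and the gene was also called after length correction (0.46, limma adjusted p = 0.00392). POLR2L was at 108, 37.6 and 77.6 FPKM in siANKRD35, against 36.5, 30.6 and 29.4 FPKM in controls, with siANKRD35 replicate 2 close to the controls. Its call was marginal (log2 change 1.07, SE 0.346, limma adjusted p = 0.049) and was lost after length correction (0.80, limma adjusted p = 0.102), but not after length and GC correction (0.86, limma adjusted p = 0.0287). The same library was lowest of its group for POLR2E, at 33.1 against 57.4 and 48.1 FPKM, and for POLR2F, at 3.51 against 9.12 and 6.56 FPKM.

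After MITD1 knockdown 3 of these 5 fell, POLR2K, POLR2F and POLR2E, where 35.6% of all tested genes were lower. The call of POLR2E (log2 change −0.17, limma adjusted p = 0.00214) was lost after length and GC correction (−0.05, limma adjusted p = 0.198). POLR2K, a zinc-binding subunit, was at 34.7, 34.8 and 35.3 FPKM in siMITD1, against 54.1, 48.6 and 51.4 FPKM in controls. The groups did not overlap (log2 change −0.54, SE 0.040, limma adjusted p = 6.64e-06). POLR2H and POLR2L overlapped between the groups and were not called. After RBCK1 knockdown the 5 shared subunit genes overlapped between the groups and were not called. Their log2 changes ran from −0.03 to 0.23 and limma adjusted p from 0.089 to 0.50. The calls depended on the setting. After length and GC correction POLR2L and POLR2E were called higher (0.20 and 0.18). After quantile normalization POLR2L, POLR2E and POLR2K were called higher (limma adjusted p = 0.00975, 0.00915 and 0.0337). With voom on recovered reads 3 of the 5 were called higher.

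POLR1C and POLR1D are shared by polymerases I and III and form the platform on which these enzymes assemble. POLR1C (ENSG00000171453, chromosome 6, 43509702 to 43562419, plus strand) was at 7.67, 7.94 and 7.54 FPKM in siMITD1, against 12.1, 12.1 and 11.8 FPKM in controls. It fell by 35.7% with no overlap (log2 change −0.58, SE 0.039, limma adjusted p = 4.15e-06). In siANKRD35 it was at 7.82, 6.74 and 7.46 FPKM, against 4.91, 5.69 and 5.25 FPKM in controls, and rose (log2 change 0.41, SE 0.087, limma adjusted p = 0.0118). In shRBCK1 it was at 5.84, 6.25 and 5.80 FPKM, against 7.33, 6.94 and 7.43 FPKM in shcontrol, and fell (log2 change −0.24, SE 0.047, limma adjusted p = 0.00432). Of its exon bases 18.2% overlap other genes, XPO5 and YIPF3 among them. POLR1E, a polymerase I subunit of the pair that helps the enzyme to start, rose to 15.8 ± 1.63 FPKM in siANKRD35 against 11.8 ± 0.503 FPKM in controls (limma adjusted p = 0.0164, or 0.296 after length correction). It was not called in the other comparisons without correction. In siMITD1 it was called higher after length correction (log2 change 0.16, limma adjusted p = 0.00876) and after length and GC correction (0.16, limma adjusted p = 0.00801). In shRBCK1 it was called higher after quantile normalization (0.18, limma adjusted p = 0.034).

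Among the small subunits specific to polymerase II, POLR2C, which with POLR2J forms the assembly platform of that enzyme, did not move the same way in all knockdowns. It was at 23.3, 22.3 and 22.7 FPKM in siMITD1, against 17.4, 16.3 and 17.6 FPKM in controls, 32.9% higher (log2 change 0.39, SE 0.039, limma adjusted p = 3.94e-05). In shRBCK1 it was at 21.8, 21.8 and 22.0 FPKM, against 28.0, 26.8 and 28.1 FPKM in shcontrol, 20.9% lower (log2 change −0.33, SE 0.033, limma adjusted p = 0.000185). In siANKRD35 it was at 32.3, 35.8 and 31.9 FPKM, against 27.8, 29.1 and 27.8 FPKM in controls, a call (limma adjusted p = 0.0482) that was lost after length correction (limma adjusted p = 0.208).

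POLR2D and POLR2G form the stalk of polymerase II, near the point where the RNA leaves the enzyme, and moved in opposite directions after MITD1 knockdown. POLR2D was at 8.06, 7.79 and 8.34 FPKM in siMITD1, against 5.79, 5.49 and 5.68 FPKM in controls. POLR2G was at 25.1, 23.8 and 21.1 FPKM in siMITD1, against 32.7, 36.6 and 33.0 FPKM in controls. Neither overlapped between groups; POLR2D rose (log2 change 0.45, SE 0.046, limma adjusted p = 4.41e-05) and POLR2G fell (log2 change −0.53, SE 0.066, limma adjusted p = 0.000138). Neither was called in the other comparisons. POLR2J, with the shared stretches given above, rose in shRBCK1 (log2 change 0.22) and siANKRD35 (0.66) and fell in siMITD1 (−0.24), with limma adjusted p between 0.0146 and 0.0187. The siANKRD35 call was lost after length correction (0.37, limma adjusted p = 0.0776), and the siMITD1 call after length and GC correction (−0.13, limma adjusted p = 0.128). POLR2I, with its overlap with TBCB, was at 18.8, 17.4 and 22.8 FPKM in siANKRD35, against 13.3, 12.9 and 10.0 FPKM in controls (log2 change 0.66, SE 0.138, limma adjusted p = 0.0113; 0.0725 after length correction). POLR2M, a dissociable subunit of polymerase II, was higher in shRBCK1 (0.27, limma adjusted p = 0.00571) and lower in siMITD1 (−0.15, limma adjusted p = 0.0289). The siMITD1 call was lost after quantile normalization (−0.11, limma adjusted p = 0.0778). Of the exon bases of POLR2M, 21.1% overlap another gene.

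**Figure D3:**
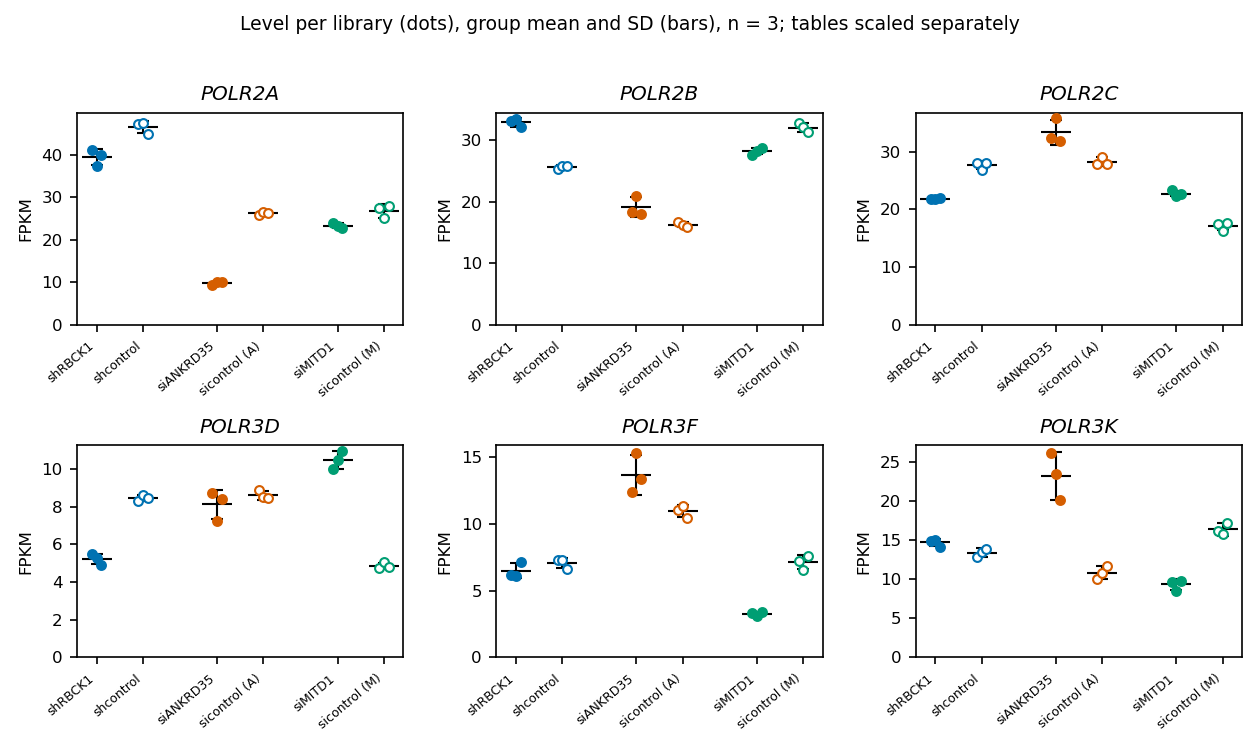
FPKM in every library (dots) with group mean and SD (bars, n = 3) for POLR2A, POLR2B, POLR2C, POLR3D, POLR3F and POLR3K; filled dots are knockdown and open dots control libraries, (A) and (M) mark the controls of siANKRD35 and siMITD1, and levels should be read within a pair because tables were scaled separately. POLR3F in siMITD1, at 3.11 to 3.40 FPKM, lies below its controls at 6.57 to 7.59 FPKM, and POLR3D in siMITD1, at 10.0 to 11.0 FPKM, above its controls at 4.75 to 5.06 FPKM.

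The polymerase III subunits held the largest changes of the family after RBCK1 and MITD1 knockdown. POLR3D and POLR3E form a pair that acts in starting and ending transcription. POLR3D was at 5.48, 5.27 and 4.91 FPKM in shRBCK1 libraries, against 8.29, 8.64 and 8.49 FPKM in shcontrol. The groups were well apart (log2 change −0.61, SE 0.048, limma adjusted p = 5.78e-05). Levels in siMITD1 were 10.0, 10.5 and 11.0 FPKM, against 4.75, 5.06 and 4.78 FPKM in controls, higher in all 3 libraries (log2 change 0.97, SE 0.049, limma adjusted p = 8.17e-07, on 2706 reads summed over the siMITD1 and 1199 over the control libraries). In siANKRD35 it was not called (log2 change −0.08, limma adjusted p = 0.507). Its partner POLR3E fell in siMITD1 (log2 change −0.22, limma adjusted p = 0.00537) and was not called in the other comparisons.

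POLR3C, POLR3F and either POLR3G or POLR3GL make up the module that polymerase III uses to open promoters. POLR3F (ENSG00000132664, chromosome 20, 18467127 to 18484643, plus strand) was at 3.29, 3.11 and 3.40 FPKM in siMITD1, against 7.23, 6.57 and 7.59 FPKM in controls. No siMITD1 library came near the controls (log2 change −0.93, SE 0.061, limma adjusted p = 3.34e-06, on 440 reads summed over the siMITD1 and 914 over the control libraries). In siANKRD35 it was at 12.3, 15.3 and 13.4 FPKM, against 11.0, 11.3 and 10.4 FPKM in controls, a marginal call (log2 change 0.29, SE 0.092, limma adjusted p = 0.0442) that was lost after length correction (limma adjusted p = 0.481). In shRBCK1 it was not called (limma adjusted p = 0.22). POLR3C was at 16.5, 16.4 and 15.1 FPKM in shRBCK1 libraries, against 20.1, 20.4 and 20.5 FPKM in shcontrol, and fell (log2 change −0.33, SE 0.042, limma adjusted p = 0.000556). In siANKRD35 POLR3C was at 20.7, 26.4 and 22.4 FPKM, against 28.97, 29.1 and 29.1 FPKM in controls, and was the only small subunit that fell there (log2 change −0.32, SE 0.097, limma adjusted p = 0.0383; −0.52 and 0.0166 after length correction).

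The paralogs POLR3G and POLR3GL give alternative forms of this module; POLR3G is the form known from stem cells and tumours, and POLR3GL is widely expressed. POLR3G was at 10.5, 14.7 and 11.0 FPKM in siANKRD35, against 6.84, 7.50 and 7.45 FPKM in controls. POLR3GL was at 7.43, 8.22 and 7.25 FPKM in siANKRD35, against 4.82, 5.32 and 3.77 FPKM in controls. Both rose without overlap (log2 change 0.65, SE 0.127, limma adjusted p = 0.00891 for POLR3G, and 0.62, SE 0.118, limma adjusted p = 0.00794 for POLR3GL). After length correction POLR3G was still called (0.56, limma adjusted p = 0.0194), and POLR3GL was not (0.33, limma adjusted p = 0.101). Their ratio overlapped between siANKRD35, 1.57 ± 0.193, and its controls, 1.602 ± 0.326. In shRBCK1 POLR3GL was at 5.31, 5.46 and 5.39 FPKM, against 3.78, 3.46 and 4.07 FPKM in shcontrol, and rose (log2 change 0.42, SE 0.058, limma adjusted p = 0.000845), while POLR3G, at 2.998, 3.31 and 3.42 FPKM in shRBCK1 libraries, against 2.98, 2.73 and 2.71 FPKM in shcontrol, was not called (limma adjusted p = 0.0728). In siMITD1 POLR3G was at 3.28, 3.90 and 3.08 FPKM, against 5.11, 4.92 and 5.29 FPKM in controls, and fell (log2 change −0.47, SE 0.073, limma adjusted p = 0.000534). POLR3GL was at 6.58, 6.58 and 6.27 FPKM there, against 6.67, 7.11 and 6.77 FPKM in controls, and was not called (limma adjusted p = 0.211). The ratio of POLR3G to POLR3GL averaged 0.602 ± 0.0349 in shRBCK1 and 0.746 ± 0.0712 in shcontrol, and 0.528 ± 0.0562 in siMITD1 and 0.746 ± 0.048 in its controls, without overlap.

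POLR3K (ENSG00000161980, chromosome 16, 46407 to 53628, minus strand), which cleaves RNA in the active centre and is needed for termination, was at 26.2, 23.4 and 20.1 FPKM in siANKRD35, against 10.1, 10.8 and 11.7 FPKM in controls. Among the genes specific to polymerase III this rise had the smallest adjusted p there (log2 change 1.03, SE 0.110, limma adjusted p = 0.00149; 0.74 and 0.00482 after length correction). In siMITD1 it was at 9.69, 8.57 and 9.77 FPKM, against 16.2, 15.8 and 17.3 FPKM in controls, and fell (log2 change −0.75, SE 0.057, limma adjusted p = 7.78e-06). In shRBCK1 it averaged 14.7 ± 0.494 FPKM and in shcontrol 13.4 ± 0.521 FPKM, a marginal call (log2 change 0.12, limma adjusted p = 0.0444) that was not made after length correction, with the change much the same (0.13, limma adjusted p = 0.0554).

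The split into large and small subunits was chosen with results of these data known and is described without a test. After ANKRD35 knockdown the 6 large subunits had a median log2 change of −0.04, with 1 higher and 3 lower, and the 22 small subunits a median of 0.40, with 13 higher and 1 lower. The listed lengths of the large subunit genes ran from 4858 bases for POLR3B to 13519 for POLR1A, and change went with length over all genes of this table. Genes under 2000 bases had a median of 0.26, with 30.2% higher and 4.88% lower, and genes over 6000 bases a median of −0.14, with 7.37% higher and 31.4% lower. Subunit genes under 2000 bases, 6 of 7 of them higher, had a median of 0.66, and those over 6000 bases, 1 of 9 higher and 3 lower, a median of 0.02. Spearman's rho between change and length was −0.67 over the 28 subunit genes and −0.41 over all tested genes, values that describe genes measured in the same libraries. After each library was corrected for gene length the rho values were −0.30 and −0.01, the medians 0.04 for large and 0.27 for small subunits, and the difference between them fell to 0.23, against 0.44 without correction.

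After that correction the genes called higher in siANKRD35 both ways were POLR1B, POLR1C, POLR2H, POLR3G and POLR3K, joined by POLR1D and POLR2B, and those lower were POLR2A and POLR3C. In the other comparisons change did not go with length to this degree. The rho values were −0.01 over subunit genes and 0.03 over all genes in the RBCK1 table, and 0.19 and 0.09 in the MITD1 table. Large and small subunits had medians of 0.12 and 0.08 after RBCK1 knockdown and of −0.18 and −0.14 after MITD1 knockdown. Log2 levels of siANKRD35 libraries correlated at 0.97 to 0.9904, the highest value being that of replicates 1 and 3, and within the other groups at 0.9915 to 0.9955; the part of siANKRD35 replicate 2 in the length relation was not tested.

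**Figure D4:**
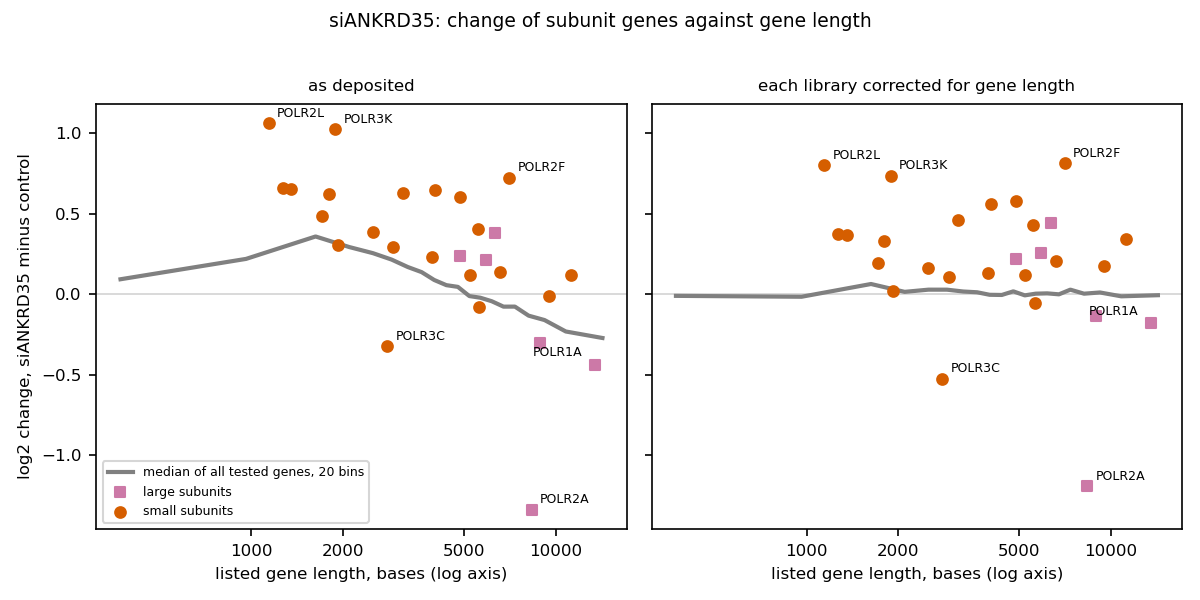
Log2 change of 27 of the 28 subunit genes after ANKRD35 knockdown against listed gene length on a log axis, as deposited (left) and after each library was corrected for gene length (right); squares are large and circles small subunits, and the grey line is the median of all tested genes in 20 length bins. The grey line falls with length on the left and is near 0 on the right, where POLR2A stays lowest at −1.19.

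Other genes of the transcription machinery were counted from lists. The shares of all tested genes to read these counts against are 24.1% higher and 24.9% lower in shRBCK1, 19.4% and 16.9% in siANKRD35 (13.6% and 14.4% after length correction), and 30.0% and 35.6% in siMITD1. Many of the list counts, those of the elongation and assembly factors in shRBCK1 among them, lie near these shares. Of 17 tested general initiation factors of polymerase II, 6 were higher and 11 not called after ANKRD35 knockdown, with a median log2 change of 0.19, and after length correction 5 were higher and 1 lower. TBP, the TATA-binding protein used by all 3 polymerases, was at 15.3 ± 0.752 FPKM in siANKRD35 and 10.2 ± 0.564 FPKM in controls (log2 change 0.55, limma adjusted p = 0.00296). After RBCK1 knockdown 3 of 17 were higher and 5 lower, and after MITD1 knockdown 5 of 15 were higher and 7 lower. GTF2A2, the small subunit of TFIIA, rose in shRBCK1 (0.26) and siANKRD35 (0.43; not called after length correction) and fell in siMITD1 (−0.52). Of 22 tested pausing and elongation factors 4 were higher and 7 lower in shRBCK1, 3 higher and 3 lower in siANKRD35, and of 20 tested 5 were higher and 5 lower in siMITD1. The elongation factor ELL2 was at 4.04 ± 0.225 FPKM in shRBCK1 and 7.53 ± 0.53 FPKM in shcontrol (limma adjusted p = 6.29e-05), and at 9.52 ± 0.166 FPKM in siMITD1 and 5.82 ± 0.336 FPKM in its controls (limma adjusted p = 9.62e-06). SUPT6H, a histone chaperone that travels with polymerase II, fell in siANKRD35 (−0.75, limma adjusted p = 0.00352; 0.0265 after length correction).

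Of 16 tested polymerase III initiation factors with the repressor MAF1, 5 were higher and 9 lower after MITD1 knockdown, beside 30.0% and 35.6% of all tested genes, with a median of −0.24. GTF3A, which binds 5S ribosomal RNA genes, was at 38.9 ± 1.43 FPKM in siMITD1 and 20.6 ± 1.05 FPKM in controls (log2 change 0.89, limma adjusted p = 7.84e-07). SNAPC2, of the complex that recognises small nuclear RNA promoters, was at 15.9 ± 0.86 FPKM in siMITD1 and 30.0 ± 0.103 FPKM in controls (log2 change −0.87, limma adjusted p = 6.02e-07). MAF1, which represses polymerase III, fell by 0.26 on the log2 scale (limma adjusted p = 3.27e-05). After RBCK1 knockdown 3 of 17 were higher and 7 lower, among them SNAPC4 (−0.50) and BRF2 (−0.56), and after ANKRD35 knockdown 7 of 17 were higher and 3 lower, or 3 and 2 after length correction. Of 8 tested polymerase I initiation and termination factors, 1 was higher and 5 lower in shRBCK1, among them RRN3, which links the enzyme to its promoter (19.5 ± 0.903 FPKM in shRBCK1 and 24.7 ± 0.588 FPKM in shcontrol), and 1 was higher and 1 lower in siANKRD35. In siMITD1 1 of 7 was higher and 3 lower, and UBTF, the architectural factor of ribosomal RNA genes, was at 15.8 ± 0.665 FPKM in siMITD1 and 24.3 ± 0.842 FPKM in controls (log2 change −0.59, limma adjusted p = 5.55e-06).

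Factors that assemble polymerases or carry them into the nucleus were higher in 3 and lower in 4 of 16 cases in shRBCK1, higher in 4 and lower in 1 of 15 in siANKRD35 (3 and 1 after length correction), and higher in 2 and lower in 7 of 14 in siMITD1. RPAP1, which acts in the nuclear import of polymerase II, fell in all 3 (log2 change −0.28, −0.47 and −0.36, with limma adjusted p = 0.00292, 0.00603 and 0.000128). Subunits under other symbols are CRCP, TWISTNB, CD3EAP and ZNRD1. Of these 4 tested genes 1 was called in shRBCK1, none in siANKRD35, and in siMITD1 only 1 was tested. The called gene was CRCP, a polymerase III stalk subunit, which fell in shRBCK1 (−0.26, limma adjusted p = 0.00231) and rose in siMITD1 (0.17, limma adjusted p = 0.00426).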

How the data were processed

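Each knockdown and its controls came in a deposited table of FPKM values (3 tables, 18 libraries), scaled by the authors to gene length and depth and named FPKM per the file headers and names; the RBCK1 and ANKRD35 tables also list gene lengths per the file headers. The submitters' processing notes name the build mm10, while the identifiers are human and the listed positions equal GENCODE 29 on GRCh38; the aligner and counter are not given in the sources used here. A set of 6 value columns that name no sample was not used. Groups were taken from sample titles. The tables hold no counts, so the test was limma 3.58.1 (trend, two-sided, Benjamini-Hochberg over all tested genes, called at an adjusted p under 0.05) in R 4.3.3 on log2(FPKM + 1), for genes with 1 FPKM or more in 3 libraries, on the 6 libraries of each comparison. The steps were tested on simulated data.

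FPKM times length gave whole reads for 100% of values in the RBCK1 and ANKRD35 tables (tolerance 0.01 reads) and for 91.0% to 91.6% in the MITD1 table (tolerance 0.05 reads, lengths by symbol from the RBCK1 table). Alternatives were a pseudocount of 0.1, no filter, quantile normalization, a correction of each library for gene length (lowess, span 0.3) or, added after seeing the data, for length and GC content, voom on recovered reads, a replicate block, and each library left out. Tables were handled with Python 3.11.15, pandas 2.3.3, NumPy 2.4.6 and SciPy 1.17.1, and plots drawn with matplotlib 3.10.9. The subunits, the large and small classes and the other gene lists were chosen with earlier results of these data known. Full statistics were given to the 5 called subunits with the smallest adjusted p in each direction of each comparison, the catalytic pairs and the pair POLR3G and POLR3GL; 1 subunit is counted with the others but not reported by name here, and further subunits were named for their role, after their values were seen.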

Additional observations from a re-analysis of the deposited data

How the results depend on the processing

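In the ANKRD35 comparison 14 subunit genes were higher and 4 lower, with a median log2 change of 0.30 and a small minus large difference of 0.44. Without a filter 9 of 31 were higher and 2 lower, beside 5.48% and 5.46% of 27910 genes (1530 higher). After quantile normalization 9 were higher and 4 lower (median 0.26), beside 14.1% and 17.1% of all tested genes. Length correction gave 7 and 2 (median 0.21, difference 0.23), and length and GC correction, chosen after seeing the data, gave 13 higher, 2 lower, a median of 0.20 and a difference of 0.25; POLR3E, not called at −0.01, was then 0.22. Leaving out single libraries gave 6 to 17 higher, 1 to 4 lower, medians of 0.26 to 0.33, and 1167 to 3516 of all genes higher and 1100 to 3020 lower. The higher end was without siANKRD35 replicate 2 (3516 and 3020), and counts fell to 1499 and 1326 without siANKRD35 replicate 3, 1211 and 1113 without control replicate 1, 1167 and 1100 without control replicate 2, and 1219 and 1139 without control replicate 3, against 2305 and 2007 with all libraries. In the MITD1 comparison the median was −0.12 after quantile normalization, −0.13 after length correction and −0.12 after length and GC correction, against −0.16. With voom it was −0.12 over 26 subunit genes. POLR1C and POLR2A, both called lower, were left out there, since their reads did not come out whole. The small minus large difference was 0.0623 after length and 0.12 after length and GC correction, against 0.04, and 0.0165 to 0.0444 with single libraries left out. In the RBCK1 comparison the median was 0.15 after quantile normalization, with 12 subunit genes higher and 5 lower, against 0.08 with 8 and 5. Counts of subunit genes in the RBCK1 and MITD1 comparisons kept within 1.5 times under the alternatives run. The causes were not tested, except that leaving out a library uses fewer samples.

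No clear pairing by replicate number was seen, though so few values cannot exclude one. Same-numbered deviations correlated at −0.087 to 0.18 in the ANKRD35, −0.0068 to 0.028 in the RBCK1 and −0.0009 to 0.105 in the MITD1 comparison. Those with different numbers correlated at −0.225 to 0.140, −0.0295 to 0.0205 and −0.0793 to 0.0446, in the same order. With the replicate block 7 subunit genes were higher and 6 lower in the RBCK1, 13 and 4 in the ANKRD35 and 4 and 14 in the MITD1 comparison. The shares of all tested genes higher and lower were then 21.0% and 22.8%, 19.2% and 15.6%, and 29.9% and 35.9%, in the same order. The block with length correction gave 10 higher and 2 lower subunit genes, 1428 of all genes higher, a median of 0.21 and a difference of 0.23 in the ANKRD35 comparison, and a median of −0.13 and a difference of 0.0623 in the MITD1 comparison.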

Other observations

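Transcription in mitochondria uses a polymerase of its own. After MITD1 knockdown POLRMT, that polymerase, averaged 19.5 ± 0.426 FPKM in siMITD1 and 30.1 ± 0.0747 FPKM in controls (SD, n = 3 each; log2 change −0.60, limma adjusted p = 9.46e-07). TFAM, which packages and bends mitochondrial DNA, averaged 12.7 ± 0.206 FPKM in siMITD1 and 18.6 ± 0.149 FPKM in controls (−0.52, limma adjusted p = 3.11e-06), and the initiation factor TFB2M 11.1 ± 1.17 FPKM in siMITD1 and 16.9 ± 1.14 FPKM in controls (−0.57, limma adjusted p = 0.00017). These 3 of 6 tested genes of the list fell, beside 35.6% of all tested genes. After RBCK1 knockdown 1 of 6 was higher and 1 lower, and after ANKRD35 knockdown 1 of 6 was higher, which was not called after length correction.

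Among RNAs made by polymerase III, RN7SL2, the RNA of the signal recognition particle, averaged 64.6 ± 48.8 FPKM in shRBCK1 and 463.4 ± 86.5 FPKM in shcontrol (log2 change −3.05, SE 0.438, limma adjusted p = 0.00106). The vault RNA gene VTRNA1-2 averaged 0.638 ± 0.666 FPKM in shRBCK1 and 2.25 ± 0.807 FPKM in shcontrol (limma adjusted p = 0.0283). These levels are near the 1 FPKM of the filter, and in shRBCK1 the SD exceeded the mean, so this call is uncertain. RN7SK, RMRP, RPPH1 and RN7SL1 were listed at 0 in every library of the RBCK1 and ANKRD35 tables. RN7SL2 averaged 4.03 ± 3.82 FPKM in siANKRD35 and 1.45 ± 0.83 FPKM in controls (limma adjusted p = 0.353). Its level thus differed widely between the control groups of these separately scaled tables. How reads of such RNAs were captured and counted was not tested, so the change of RN7SL2 in shRBCK1 is uncertain.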
